A study of Mus musculus with 16 samples.

Results

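The 10 core genes of the circadian clock measured here were Clock, Per1, Per2, Per3, Cry1, Cry2, Nr1d1, Nr1d2, Dbp and Tef. They were taken as all probe sets whose platform gene symbol was 1 of these names, which gave 24 of 45037 probe sets that were not controls, and 10 of 18193 genes. With 1 probe set per gene (the one of highest mean) and a floor on low signals, 12735 genes were tested, 9 of the 10 among them. Nr1d1 lay under the floor, and its values come from the fit without one. The arrays were Affymetrix mouse whole-genome arrays, 1 per mouse, on total RNA of the far 5 mm of the left thigh bone, taken from female C57BL/6 mice whose ovaries had been removed. The 4 groups of 4 mice were osteoclast-specific ER alpha knockouts 4 hours after estrogen (ERaKO-E2-4hr), such knockouts without estrogen (ERaKO-OVX), wild-type mice 4 hours after estrogen (WT-E2-4hr), and wild-type mice with vehicle (WT-OVX). Ovariectomy was common to all 4 groups. The labels of the ERaKO-OVX mice name no vehicle, and the series' design text puts them in the vehicle arm. The estrogen compound and dose, the promoter that drove the deletion, the age of the mice, and the hour of day of treatment and harvest are details the labels and design text used here leave out. The tissue was bone with its marrow, so fewer cells of a type and less RNA per cell cannot be told apart.

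The clock is a feedback loop of transcription. The proteins CLOCK and BMAL1 (gene Arntl) bind E-boxes and switch on the Per and Cry genes, whose proteins return to repress CLOCK and BMAL1. A second loop is made by the nuclear receptors REV-ERB alpha and beta (Nr1d1 and Nr1d2), which repress Arntl and other genes through RORE sites, and the PAR bZIP factors DBP and TEF carry the rhythm to output genes through D-boxes. Most tissues, bone and marrow included, keep such a clock, so that the RNA level of these genes depends on the hour at which a tissue is taken. The comparisons ask whether estrogen moved these genes in bone within 4 hours, and whether its effect needed the receptor in osteoclasts.

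Signals are linear array signals in units the authors set so that the 2% trimmed mean was 500 on every array. Differences were taken after adding 16 to each signal and turning it to log2, and are given with the SE of the limma fit, and a fold on that scale understates the change of low genes. Nothing in the labels says that a replicate number marks more than a separate mouse, but the mice numbered 3 and 4 differed from those numbered 1 and 2 in all 4 groups. The summed signal of 8 skeletal muscle markers ran from 2690.1 to 26372 in mice 3 and 4, against 58762 to 495864 in mice 1 and 2. By group the same sum ran from 2690.1 to 495864 in ERaKO-E2-4hr, 5106 to 115461 in ERaKO-OVX, 6572 to 157958 in WT-E2-4hr and 11463 to 350741 in WT-OVX mice. Bacterial spike-in signal was high on 3 arrays (ERaKO-E2-4hr replicate 1, WT-E2-4hr replicate 2 and WT-OVX replicate 2), whose Actb 3′ to 5′ signal ratios were 2.07, 2.44 and 3.53, against 1.17 to 1.5 on the others. Markers of osteoclasts (8 of 8) and of osteoblasts and osteocytes (7 of 7 measured) lay above the floor. The lowest signal of any probe set on any array was 0.0708, so no marker was at 0. Esr1, the gene deleted in osteoclasts, read 753, 513, 484 and 409 in ERaKO-E2-4hr mice, 579.7, 627, 723 and 617 in ERaKO-OVX mice, 475, 456, 434 and 664 in WT-E2-4hr mice, and 792, 876, 1100.2 and 1011 in WT-OVX mice. Its signal in whole bone was lower in ERaKO-OVX than in WT-OVX mice without overlap (log2 difference −0.55 ± 0.19, adjusted p = 0.952), which held for 1.87% of all genes, and whether its probes lie in the deleted part was not tested.

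Promoter windows from RefSeq (build GRCm38.p6), 250 bases before to 50 after a gene's start, were at hand for 9 of the 10 genes, in 13 windows of 300 bases. Per2 had none. Windows of 6 genes are printed 5′ to 3′: Dbp, Nr1d2 and Nr1d1 because they had the lowest estrogen differences in wild-type mice, and Cry1, Per1 and Per3 because clock motifs were found in them, which stand in capitals.
Dbp, chr7:45704997-45705296, plus strand: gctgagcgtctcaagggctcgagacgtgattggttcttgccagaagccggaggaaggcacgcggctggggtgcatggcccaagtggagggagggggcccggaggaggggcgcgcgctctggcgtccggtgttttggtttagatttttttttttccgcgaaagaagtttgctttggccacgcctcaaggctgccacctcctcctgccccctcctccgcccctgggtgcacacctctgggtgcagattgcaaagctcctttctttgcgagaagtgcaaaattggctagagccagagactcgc
Nr1d2, chr14:18239057-18239356, minus strand: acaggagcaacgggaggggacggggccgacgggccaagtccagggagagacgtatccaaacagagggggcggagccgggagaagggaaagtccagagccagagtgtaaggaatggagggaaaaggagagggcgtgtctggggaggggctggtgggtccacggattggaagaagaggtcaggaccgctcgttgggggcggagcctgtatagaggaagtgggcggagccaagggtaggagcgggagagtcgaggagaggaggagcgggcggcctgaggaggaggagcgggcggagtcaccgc
Nr1d1, chr11:98775328-98775627, minus strand: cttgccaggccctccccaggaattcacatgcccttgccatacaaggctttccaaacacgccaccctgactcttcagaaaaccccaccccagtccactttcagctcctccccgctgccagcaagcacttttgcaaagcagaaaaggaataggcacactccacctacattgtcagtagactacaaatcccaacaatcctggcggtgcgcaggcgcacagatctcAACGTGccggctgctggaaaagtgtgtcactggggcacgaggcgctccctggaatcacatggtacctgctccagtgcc
Cry1, chr10:85185005-85185304, minus strand: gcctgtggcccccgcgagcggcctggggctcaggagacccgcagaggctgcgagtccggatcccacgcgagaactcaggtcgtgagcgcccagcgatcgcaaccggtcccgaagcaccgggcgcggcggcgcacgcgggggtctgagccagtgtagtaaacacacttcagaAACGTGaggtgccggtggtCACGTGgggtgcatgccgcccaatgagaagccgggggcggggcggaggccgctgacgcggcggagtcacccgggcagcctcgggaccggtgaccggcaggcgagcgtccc
Per1, chr11:69098699-69098998, plus strand: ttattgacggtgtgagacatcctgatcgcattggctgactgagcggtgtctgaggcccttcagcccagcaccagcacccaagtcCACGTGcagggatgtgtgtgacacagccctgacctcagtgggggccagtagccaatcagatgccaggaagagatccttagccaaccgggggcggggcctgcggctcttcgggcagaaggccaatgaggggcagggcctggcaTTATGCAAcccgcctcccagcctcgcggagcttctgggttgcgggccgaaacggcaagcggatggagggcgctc
Per3, chr4:151044616-151044915, minus strand: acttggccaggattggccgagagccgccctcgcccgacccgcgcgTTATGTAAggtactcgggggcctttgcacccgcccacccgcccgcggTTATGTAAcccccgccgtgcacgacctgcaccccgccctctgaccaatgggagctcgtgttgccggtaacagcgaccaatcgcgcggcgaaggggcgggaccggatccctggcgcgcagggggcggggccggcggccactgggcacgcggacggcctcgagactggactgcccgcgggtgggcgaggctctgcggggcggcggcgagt
The motifs searched on both strands were the E-box CACGTG, the E-prime box CACGTT, the D-boxes TTATGTAA and TTATGCAA, the RORE (GGTCA straight after AANTN), the cyclic AMP response element TGACGTCA, the estrogen response element (GGTCA and TGACC with 3 bases between) and the glucocorticoid response element (AGAACA and TGTTCT with 3 bases between). Matches did not overlap each other. Distances are from a motif's first base to the gene's start. Cry1 held an E-box 60 bases and an E-prime box (read here as AACGTG, its other strand) 79 bases before the start, and Per1 held an E-box at 166 and a D-box TTATGCAA at 24 bases. Per3 held TTATGTAA at 205 and at 158 bases before its start, and Nr1d1 held an E-prime box at 28. Cry2 also held an E-prime box, and 2 windows of Tef held an E-box each. The windows of Dbp, Nr1d2 and Clock held no match, which says only that these letters are not in these 300 bases. Among all 32851 windows of that length, 7.15% held the E-box, 4.68% the E-prime box, 0.938% TTATGTAA, 0.743% TTATGCAA, 0.606% the RORE, 1.79% the cyclic AMP element, 0.0700% the estrogen element and 0.0091% the glucocorticoid element, the last 4 of which were in no window of the 10 genes.

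Between estrogen and vehicle, no clock gene passed the test over all genes in either genotype (limma with Benjamini-Hochberg adjustment over 12735 genes). In knockout mice 8 of the 9 tested genes had a higher mean after estrogen and 1 a lower mean, with a median log2 difference of 0.20 against 0.01 over all genes. That tally rested on ERaKO-E2-4hr replicate 1, a mouse of the high spike-in arrays: without it 4 of the 9 had a higher mean and 5 a lower one, with a median of −0.0052. Without it Clock (−0.12), Per2 (−0.15), Dbp (−0.34) and Tef (−0.0052) turned to a lower mean, and Cry1, already lower, was at −0.08. None of the 9 reached an unadjusted p under 0.05 there, against 4.9% of all genes, and the estrogen and vehicle groups overlapped for every one of them. In wild-type mice 7 of the 9 had a lower mean after estrogen and 2 a higher mean, with a median of −0.20 against −0.01 over all genes. In wild type 3 of the 9 reached an unadjusted p under 0.05: Dbp and Nr1d2, which were lower after estrogen, and Cry1, which was higher. The share over all genes was 8.69%, of which 4.79% lower and 3.9% higher, and 0 of 12735 genes passed after adjustment. For Dbp and Nr1d2 the treated mice all lay below the untreated ones, which held for 2 of 9 clock genes and for 2.29% of all genes.

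**Figure D1:**
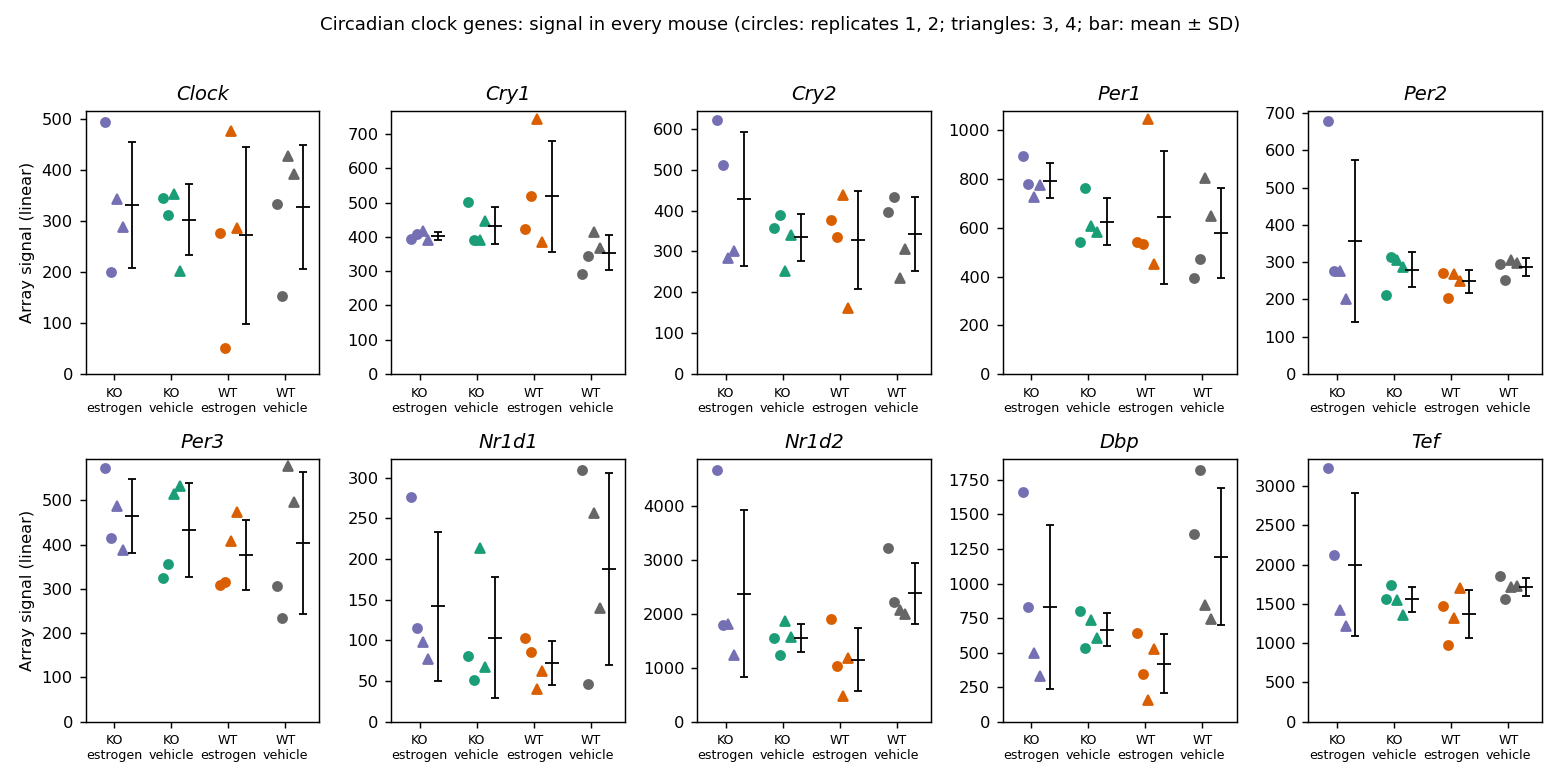
Linear array signal of each of the 10 clock genes (y axes) in every mouse of the 4 groups (x axes), with knockout (KO) groups left of wild-type (WT) groups and estrogen left of vehicle. Circles are replicates 1 and 2, triangles replicates 3 and 4, and bars the mean ± SD of 4 mice. The Dbp and Nr1d2 signals of the 4 WT estrogen mice all lie below those of the 4 WT vehicle mice.

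In the activator arm, Clock and Arntl had no estrogen difference past the test in either genotype. Clock, which encodes the partner of BMAL1, read 494, 200.4, 344 and 289 in ERaKO-E2-4hr mice, against 345, 312, 353 and 202 in ERaKO-OVX mice. It read 277, 51.4, 476 and 286 in WT-E2-4hr mice, against 334, 154, 427 and 393 in WT-OVX mice. The groups overlapped in both genotypes, and the lowest signal of all was that of WT-E2-4hr replicate 2, a mouse of the high spike-in arrays. The estrogen difference of Clock was 0.09 ± 0.48 in knockout and −0.47 ± 0.48 in wild-type mice (adjusted p = 0.994 and 0.833). Without WT-E2-4hr replicate 2 the wild-type difference was 0.13, and without all 3 high spike-in arrays it was −0.18. Arntl differed by −0.01 ± 0.33 in knockout and 0.06 ± 0.33 in wild-type mice. Npas2, a paralogue of Clock, lay under the floor, with a mean difference of 0.93 ± 0.29 in knockout (unadjusted p = 0.00597) and 0.66 ± 0.29 in wild-type mice (unadjusted p = 0.0399). Its signals were 168, 115, 140.1 and 110.5 in ERaKO-E2-4hr, against 63.6, 76.7, 46.9 and 62.6 in ERaKO-OVX mice, with no overlap, as was so for 1.5% of the tested genes in that direction. They were 130.4, 197, 84.6 and 139 in WT-E2-4hr, against 115, 85.9, 57.1 and 64.7 in WT-OVX mice, which overlapped. Averaged over the genotypes, Npas2 was higher after estrogen by 0.79 ± 0.21 (exact two-sided permutation p = 0.00122, 4900 arrangements), without adjustment over genes since it was not among those tested. A second and dimmer Npas2 probe set read 5.66 to 22.5 in knockout and 8.47 to 87.2 in wild-type mice. Its estrogen and vehicle groups overlapped in both genotypes.

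Of the repressors, Cry1, which encodes a cryptochrome that blocks CLOCK and BMAL1, was the only member with a higher value after estrogen at an unadjusted p under 0.05 in wild-type mice. It read 394, 409, 417 and 391 in ERaKO-E2-4hr mice, against 503, 392, 390.3 and 447 in ERaKO-OVX mice. It read 422, 519, 745 and 386 in WT-E2-4hr mice, against 291, 343, 414 and 368 in WT-OVX mice. The wild-type groups overlapped by 1 mouse of each group, and ERaKO-E2-4hr mice lay closer together than any other group (403 ± 12.4, SD, n = 4). The difference was −0.09 ± 0.19 in knockout and 0.50 ± 0.19 in wild-type mice (unadjusted p = 0.626 and 0.0181, adjusted p = 0.985 and 0.469), and the exact permutation p in wild type was 0.0571 over 70 arrangements. Within replicate sets that permutation p was 0.111. Without WT-E2-4hr replicate 3, the highest of the 4, the wild-type difference was 0.31 (unadjusted p = 0.0812), and without WT-OVX replicate 1, the lowest, it was 0.41 (unadjusted p = 0.0611). Cry2, the second cryptochrome, read 621, 511, 284 and 302 in ERaKO-E2-4hr, against 358, 389, 253 and 339.7 in ERaKO-OVX mice, and 377, 336, 439 and 161 in WT-E2-4hr, against 397, 433, 234 and 305 in WT-OVX mice. Its groups overlapped throughout, with estrogen differences of 0.29 ± 0.31 in knockout and −0.10 ± 0.31 in wild-type mice.

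The Period genes, whose proteins form the repressor complex with the cryptochromes, showed no estrogen difference past the test. Per1, which is also an acute response gene, read 895, 779, 728 and 775 in ERaKO-E2-4hr, against 543, 764, 609 and 584 in ERaKO-OVX mice. Only 1 of the knockout mice without estrogen, replicate 2, reached the range of the treated ones, and the difference was 0.35 ± 0.25 (unadjusted p = 0.177, exact permutation p = 0.0571). In wild type Per1 read 542, 535, 1046 and 450.1 after estrogen, against 394, 471, 803 and 649.5 with vehicle, a difference of 0.12 ± 0.25. Per2 read 679, 277, 275 and 200.2 in ERaKO-E2-4hr, against 212, 314, 305 and 287 in ERaKO-OVX mice. The high value was ERaKO-E2-4hr replicate 1, and the other 3 treated knockouts lay within or below the range of the untreated ones. Without that mouse the knockout difference was −0.15. In wild type Per2 read 272, 205, 267 and 250.5 after estrogen, against 294, 251, 306 and 298 with vehicle, a difference of −0.20 ± 0.28 against 0.20 ± 0.28 in knockout. Per3 differed by 0.12 ± 0.26 in knockout and −0.03 ± 0.26 in wild-type mice, and its signals are given with the replicate numbers further on.

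Both REV-ERB genes had a lower mean after estrogen in wild-type mice and a higher mean in knockout mice, and the Nr1d2 difference in wild type was the clearer one. The higher knockout means rested largely on ERaKO-E2-4hr replicate 1. Without that mouse the knockout difference was 0.04 for Nr1d2 and 0.08 for Nr1d1. Nr1d2, which encodes REV-ERB beta, read 4667, 1787, 1806 and 1236 in ERaKO-E2-4hr mice, against 1556, 1242, 1872 and 1564 in ERaKO-OVX mice. It read 1909, 1036, 478 and 1187 in WT-E2-4hr mice, against 3225, 2222, 2071 and 1998 in WT-OVX mice. All 4 wild-type mice given estrogen lay below all 4 given vehicle, while the knockout groups overlapped and 1 treated knockout, replicate 1, stood far above the rest. The difference was 0.43 ± 0.38 in knockout (unadjusted p = 0.279) and −1.17 ± 0.38 in wild-type mice, 2.24-fold lower on this scale (unadjusted p = 0.00738, adjusted p = 0.364). The exact permutation p in wild type was 0.0286, the smallest that 70 arrangements of 4 against 4 can give, and 0.0556, again the smallest, over the 36 arrangements within replicate sets. Within replicates 3 and 4 the wild-type difference was −1.41, against −0.92 for replicates 1 and 2, so both sets had the same sign. Nr1d1, which encodes REV-ERB alpha, read 276, 115, 97.8 and 77.3 in ERaKO-E2-4hr, against 80.5, 51.1, 213 and 67.6 in ERaKO-OVX mice, and 102, 85.4, 39.8 and 62.8 in WT-E2-4hr, against 309, 46.5, 257 and 140.0 in WT-OVX mice. Its signals were low and spread widely, WT-OVX replicate 2 lay within the treated range, and the differences were 0.43 ± 0.52 in knockout and −1.01 ± 0.52 in wild-type mice (unadjusted p = 0.418 and 0.0677).

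Among the PAR bZIP genes, Dbp had the largest estrogen difference of the 10 genes and Tef a small one of the same sign. Dbp, a textbook target of CLOCK and BMAL1, read 1663, 829, 499.5 and 332 in ERaKO-E2-4hr mice, against 799, 532, 735 and 604 in ERaKO-OVX mice. It read 644, 347, 161 and 529 in WT-E2-4hr mice, against 1362, 1821, 847 and 747 in WT-OVX mice. Every wild-type mouse given estrogen was below every wild-type mouse given vehicle, and the treated knockouts lay both above and below the untreated ones. The difference was 0.07 ± 0.45 in knockout (unadjusted p = 0.872) and −1.54 ± 0.45 in wild-type mice, 2.92-fold lower on this scale (unadjusted p = 0.00336, adjusted p = 0.314, exact permutation p = 0.0286). Within replicate sets the wild-type permutation p was 0.0556, the smallest that 36 arrangements can give. Among wild-type mice the difference was −1.39 for replicates 3 and 4, against −1.70 for replicates 1 and 2. Tef, a relative of Dbp that binds the same sites, read 3235, 2118, 1425 and 1221 in ERaKO-E2-4hr, against 1565, 1745, 1551 and 1363 in ERaKO-OVX mice. In wild type it read 1478, 973, 1321 and 1696 after estrogen, against 1853, 1561, 1712 and 1731 with vehicle, with 3 of the 4 treated mice below all 4 untreated ones. Its differences were 0.26 ± 0.24 in knockout and −0.35 ± 0.24 in wild-type mice (unadjusted p = 0.297 and 0.167), and the knockout one was −0.0052 without ERaKO-E2-4hr replicate 1.

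**Figure D2:**
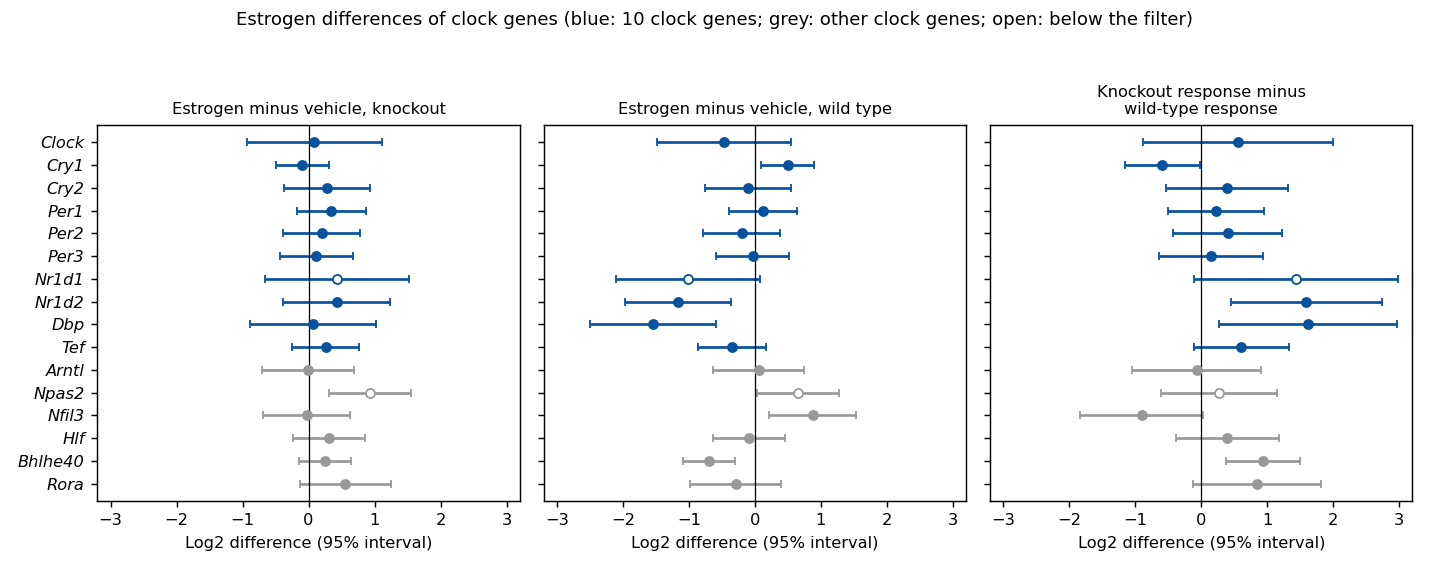
Log2 differences (x axes) with 95% intervals for the 10 clock genes (blue) and for 6 other clock genes (grey), estrogen minus vehicle in knockout (left), in wild type (middle), and knockout response minus wild-type response (right). Open circles are genes under the floor on low signals. In wild type the intervals of Dbp, Nr1d2, Cry1, Nfil3, Bhlhe40 and Npas2 leave out 0, and in knockout only that of Npas2 does among the genes drawn.

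Leaving out the 3 high spike-in arrays, the wild-type differences were −1.28 for Dbp and −1.19 for Nr1d2 (unadjusted p = 0.0110 and 0.00701). Skeletal muscle markers had the direction of most members in each genotype: 8 of 8 had a higher mean after estrogen in knockout (median log2 difference 1.14) and 7 of 8 a lower mean in wild-type mice (median −0.91), none at an unadjusted p under 0.05. Their summed signal in ERaKO-E2-4hr mice was 495864 in replicate 1, against 173176.5, 26372 and 2690.1 in replicates 2, 3 and 4. With the muscle signal of each array as a covariate, a choice made after the data were seen, the wild-type differences were −1.43 for Dbp and −1.09 for Nr1d2 (unadjusted p = 0.000669 and 0.00408). Adipocyte markers went the same 2 ways, 3 of 4 higher in knockout (median 0.42) and 3 of 4 lower in wild type (median −0.51), with summed signals of 5819.6 to 31826 in ERaKO-E2-4hr, 6113 to 12959.8 in ERaKO-OVX, 8014 to 15990.0 in WT-E2-4hr and 8694 to 29449 in WT-OVX mice. B lymphocyte markers were lower after estrogen in both genotypes (6 of 7 in knockout, 7 of 7 in wild type), as were cartilage markers (7 of 8 and 8 of 8). Glucocorticoid response genes, which adrenal steroids raise, were higher in 7 of 8 cases in knockout and in 8 of 8 in wild type, with medians of 0.34 and 0.33. Neutrophil markers were higher in 7 of 8 cases in knockout (median 0.18, 0 of 8 at an unadjusted p under 0.05) and in 6 of 8 in wild type (median 0.44, 4 of 8 under 0.05). Between the genotypes after estrogen they were lower in knockout in 8 of 8 cases (median −0.43, 4 of 8 under 0.05). Osteoclast, osteoblast and osteocyte, and erythroid markers had medians between −0.23 and 0.17 in both genotypes. None of these list members passed after adjustment. Muscle signal did not overlap between the replicate sets, so the covariate cannot tell muscle content from replicate set, and nothing is drawn from it. The part of any of these lists in the clock gene differences was not tested.

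Every probe set of the 10 genes gave a value. Of the 24, 17 were higher and 7 lower after estrogen in knockout, and 5 were higher and 19 lower in wild type, against 47.4% and 52.7% lower over all 45037 probe sets. Probe sets of the same gene are not separate observations, so this tally adds no independent result to that of the genes. How far the knockout tally rests on ERaKO-E2-4hr replicate 1 was not tested for probe sets. In wild type 5 of the 24 reached an unadjusted p under 0.05, the 4 of Dbp and Nr1d2 and that of Cry1, against 6.14% of all probe sets, and in knockout 0 did, against 3.73%. The second Dbp probe set read 759.9, 346, 324 and 202 in ERaKO-E2-4hr, against 396, 355, 409 and 472 in ERaKO-OVX mice, and 331, 76.1, 148 and 328 in WT-E2-4hr, against 652, 535, 460.3 and 482 in WT-OVX mice. Its differences were −0.15 ± 0.39 in knockout and −1.40 ± 0.39 in wild type, close to those of the first. The second Nr1d2 probe set was dim, at 54.0, 159.7, 119.6 and 97.9 in ERaKO-E2-4hr, against 20.4, 101, 162 and 132 in ERaKO-OVX mice, and 15.7, 16.0, 38.4 and 48.0 in WT-E2-4hr, against 157, 97.9, 204 and 166 in WT-OVX mice. Its wild-type groups did not overlap either, with differences of 0.19 ± 0.46 in knockout and −1.95 ± 0.46 in wild type. The 4 sets of Clock, 3 of Per2, 6 of Per3 and 3 of Tef ranged from −0.54 to 0.21 in wild type.

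**Figure D3:**
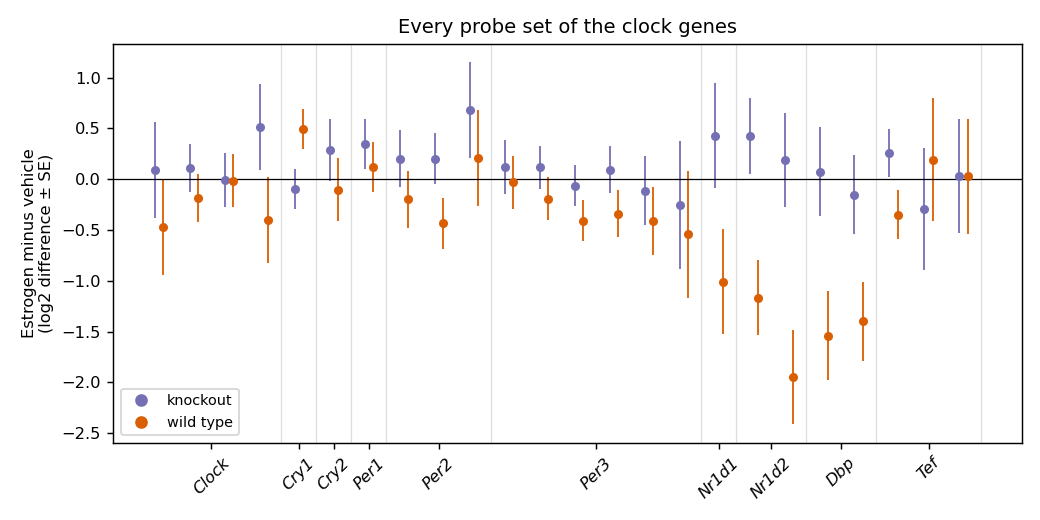
Estrogen minus vehicle log2 difference ± SE (y axis) of each of the 24 probe sets, grouped by gene (x axis), in knockout (purple) and wild type (orange). The 2 sets of Dbp and the 2 of Nr1d2 lie between −1.95 and −1.17 in wild type and between −0.15 and 0.43 in knockout.

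The difference between the estrogen responses, knockout minus wild type, asks whether the receptor in osteoclasts bears on the effect. Of the 9 tested genes 8 had a higher response in knockout and Cry1 a lower one, with a median of 0.40 against 0.01 over all genes, and of 0.19 without the 3 high spike-in arrays. An unadjusted p under 0.05 was reached by 3 of the 9, against 7.62% of all genes, and none passed after adjustment. Nr1d2 differed by 1.59 ± 0.54 (unadjusted p = 0.0092, adjusted p = 0.631), with an exact permutation p of 0.0184 over 4900 arrangements and of 0.0201 within replicate sets. Dbp differed by 1.62 ± 0.64 (unadjusted p = 0.0216, adjusted p = 0.636), with permutation p of 0.0653 and 0.0540. Cry1 differed by −0.59 ± 0.27 (unadjusted p = 0.0418, adjusted p = 0.646), with permutation p of 0.0224 and 0.0417. The permutation moved treatment labels within each genotype, which takes estrogen to act in neither, so its p is no test of equal responses. These 3 genes were read on the same 16 arrays as the separate responses above. The 70 permutation tests of the 10 genes over 7 comparisons, 5 of them under 0.05, were not adjusted. Within replicate sets 3 of the 70 were under 0.05. Permutation tests of other clock genes are not in these counts.

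The size of that difference varied with the replicate set and with 1 mouse. Within replicates 3 and 4 the Dbp difference between responses was 0.70 and that of Nr1d2 1.22, against 2.54 and 1.97 within replicates 1 and 2. Within the knockout mice, Dbp was lower after estrogen by −0.69 in replicates 3 and 4 and higher by 0.83 in replicates 1 and 2, and Nr1d2 differed by −0.19 and 1.05. ERaKO-E2-4hr replicate 1 had the highest signal of all 16 mice for Clock, Per2, Cry2, Nr1d2 and Tef, together with the highest muscle signal. Without it the difference between responses was 1.20 for Dbp (unadjusted p = 0.0492) and 1.21 for Nr1d2 (unadjusted p = 0.0173). Without WT-E2-4hr replicate 3, the lowest of its group for both genes, it was 1.24 for Dbp (unadjusted p = 0.0525) and 1.23 for Nr1d2 (unadjusted p = 0.0202). Without the 3 high spike-in arrays it was 0.94 for Dbp (unadjusted p = 0.138) and 1.23 for Nr1d2 (unadjusted p = 0.0317), and with muscle as a covariate 1.30 and 1.39. Muscle markers were themselves higher in 8 of 8 cases in this comparison, with a median of 2.05.

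Knockout was also set against wild type under each treatment. After estrogen 8 of 9 clock genes were higher in knockout, with a median of 0.38 against 0.02 over all genes. Without the 3 high spike-in arrays 6 of 9 were higher, with a median of 0.22, or of 0.13 with each gene's probe set kept. With all arrays 1 of 9 reached an unadjusted p under 0.05, against 6.75% of all genes. That gene was Nr1d2, at 2374 ± 1551 in ERaKO-E2-4hr and 1153 ± 589 in WT-E2-4hr mice (SD, n = 4 each), a log2 difference of 1.00 ± 0.38 (unadjusted p = 0.0183, adjusted p = 0.671). With the replicate number as a block, 2 of 9 did, with Dbp added at 0.87 (unadjusted p = 0.0279). The share over all genes is not given for that fit. With the replicate set as a term it was 9.84%, so the added gene is not read as a result about clock genes. In the main fit without ERaKO-E2-4hr replicate 1, none of the 9 reached an unadjusted p under 0.05. Nr1d2 differed by 0.61 there (unadjusted p = 0.0839), and by 0.64 without WT-E2-4hr replicate 3 (unadjusted p = 0.0862). Under vehicle 0 of 9 reached an unadjusted p under 0.05, against 3.6% of all genes, and the largest differences were negative ones. Dbp averaged 667 ± 121 in ERaKO-OVX and 1194 ± 497 in WT-OVX mice, a difference of −0.75 ± 0.45 (unadjusted p = 0.115). Nr1d2 averaged 1559 ± 257 in ERaKO-OVX and 2379 ± 572 in WT-OVX mice, a difference of −0.59 ± 0.38 (unadjusted p = 0.139), and all its knockout mice lay below all wild-type mice, which held for 1.87% of all genes. The same WT-OVX mice are the vehicle group of the wild-type estrogen comparison, so their high Dbp and Nr1d2 signals enter both. Averaged over treatments 0 of 9 genes reached an unadjusted p under 0.05 between genotypes, against 3.03% of all genes. Averaged over genotypes 1 of 9 did between estrogen and vehicle, against 6.15% of all genes: Dbp, at −0.74 ± 0.32 (unadjusted p = 0.0343, adjusted p = 0.734).

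By replicate number, 3 clock genes passed the test over all genes. Between mice 3 and 4 and mice 1 and 2 of all groups, with the group as a term, Per3 was higher by 0.47 ± 0.15 (adjusted p = 0.0362), while Cry2 was lower by 0.56 and Dbp by 0.77 on the log2 scale. The Cry2 difference was −0.56 ± 0.17 (adjusted p = 0.0313) and that of Dbp −0.77 ± 0.25 (adjusted p = 0.0426). In the same comparison 17.9% of all genes passed, so 3 of 9 is read against that. Per3 read 488 and 387 in replicates 3 and 4 against 574 and 415 in replicates 1 and 2 of ERaKO-E2-4hr, and 516 and 532 against 326 and 357 in ERaKO-OVX. It read 407 and 473 against 309 and 316 in WT-E2-4hr, and 577 and 497 against 306 and 233 in WT-OVX, so it was higher in replicates 3 and 4 in 3 of the 4 groups. The direction was the other way in ERaKO-E2-4hr (−0.16). Leaving out the 3 high spike-in arrays gave Per3 another probe set as its brightest, at −0.012, while the set reported here gave 0.49 (adjusted p = 0.0253). Cry2 was lower in replicates 3 and 4 in all 4 groups, by −0.91 in ERaKO-E2-4hr, −0.33 in ERaKO-OVX, −0.39 in WT-E2-4hr and −0.60 in WT-OVX. Dbp was lower in 3 groups, by −1.49, −0.66 and −0.97 in ERaKO-E2-4hr, WT-E2-4hr and WT-OVX, and differed by 0.030 in ERaKO-OVX. Cry2 and Dbp did not pass without the 3 arrays (−0.51 and −0.62, adjusted p = 0.120 and 0.136). With 1 array left out at a time and each probe set kept, a choice made after the data were seen, the call was kept in 5 of 16 cases for Per3, 10 of 16 for Cry2 and 5 of 16 for Dbp. With the probe set chosen anew it was kept in 4 of 16 cases for Per3. Muscle markers were lower in replicates 3 and 4 in 8 of 8 cases, all passing (median −4.35), and osteoclast markers higher in 8 of 8, 7 passing (median 1.13). With muscle as a covariate none of the 3 calls held: the difference was 1.02 for Per3 (unadjusted p = 0.0255, adjusted p = 0.752), 0.050 for Cry2 (adjusted p = 0.993) and −0.14 for Dbp (adjusted p = 0.983). Muscle signal did not overlap between the replicate sets, and in that fit 0 of all genes passed, against 2285 without the covariate. Replicate set and muscle signal cannot be told apart there for any gene, so nothing is drawn from the lost calls. Other probe sets differed from these values: the second Dbp set gave −0.16, and the 6 Per3 sets ranged from −0.24 to 1.42.

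**Figure D4:**
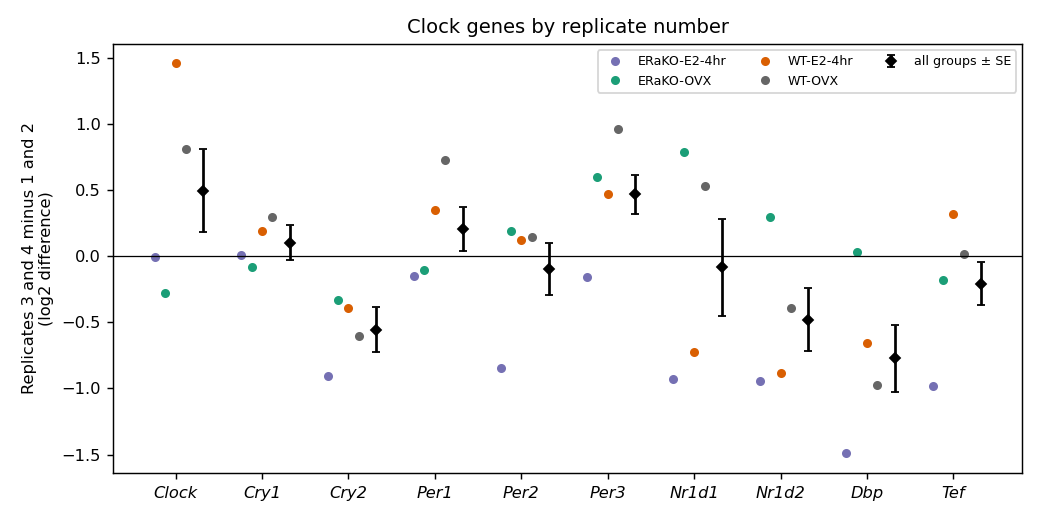
Log2 difference of replicates 3 and 4 minus replicates 1 and 2 (y axis) for each clock gene (x axis), within each group (coloured points) and over all groups with the SE of the fit (black diamonds). Cry2 lies below 0 in all 4 groups, Per3 above 0 in 3 of 4 and Dbp below 0 in 3 of 4.

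Other genes of the clock were described from a list of 24, of which 22 had a probe set and 17 were tested. After estrogen 9 were higher and 8 lower in knockout, and 7 higher and 10 lower in wild type, and none passed after adjustment. In knockout 1 of the 17 reached an unadjusted p under 0.05, against 4.9% of all genes, and in wild type 2 did, against 8.69%. Bhlhe40, which encodes the E-box repressor DEC1, read 1018, 1346, 1357 and 1122 in ERaKO-E2-4hr, against 913, 807, 1210.2 and 1165 in ERaKO-OVX mice, and 956, 638, 670.4 and 562 in WT-E2-4hr, against 1373, 932, 1168 and 1079 in WT-OVX mice. Its difference was 0.25 ± 0.19 in knockout and −0.69 ± 0.19 in wild type (unadjusted p = 0.202 and 0.00189), the responses differed by 0.94 ± 0.26 (exact permutation p = 0.00816), and ERaKO-E2-4hr lay above WT-E2-4hr mice without overlap, which held for 1.22% of all genes. Nfil3, which encodes the repressor E4BP4 of the same D-boxes that DBP activates, read 477, 275, 278 and 133 in ERaKO-E2-4hr, against 288, 327, 199.6 and 285 in ERaKO-OVX mice, and 275, 552, 588 and 416 in WT-E2-4hr, against 268, 269, 217 and 185 in WT-OVX mice. It was higher after estrogen in wild type without overlap, as were 2.21% of all genes, by 0.88 ± 0.31 (unadjusted p = 0.0125), and differed by −0.03 ± 0.31 in knockout. Hlf, the third PAR bZIP gene, differed by 0.31 ± 0.26 in knockout and −0.09 ± 0.26 in wild type. Usp2, a deubiquitinase with a strong daily rhythm, was higher by 0.62 ± 0.29 in knockout (unadjusted p = 0.0469), with its highest signal, 2558, again in ERaKO-E2-4hr replicate 1. By replicate number, Csnk1d, a kinase of the PER proteins, was lower in replicates 3 and 4 by −1.13 ± 0.18 and Timeless higher by 0.72 ± 0.11 (adjusted p = 0.000472 and 0.000475). Only the brightest of the 5 Csnk1d probe sets showed this, the others giving −0.05, 0.15, 0.37 and 0.65, and the second Timeless set gave 0.15.

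As a summary per mouse with no test, the mean log2 signal of Arntl, Clock and Npas2 was taken from that of the 7 genes driven through E-boxes or D-boxes (Dbp, Tef, Nr1d1, Nr1d2, Per1, Per2 and Per3). The balance ran from 0.69 to 1.62 in ERaKO-E2-4hr, 0.75 to 1.52 in ERaKO-OVX, 0.39 to 0.93 in WT-E2-4hr and 1.14 to 1.32 in WT-OVX mice. All 4 wild-type mice given estrogen lay under all 4 given vehicle, and in knockout the groups overlapped. The balance is made of genes already described, with Dbp, Nr1d2 and Npas2 among them, so it restates their values and is no separate result. In both knockout groups and in WT-E2-4hr the mice divided by replicate number, but not all in the same direction. The balance was lower in replicates 3 and 4 of ERaKO-E2-4hr, at 0.69 and 0.82 against 1.62 and 1.10 in replicates 1 and 2. It was also lower there in WT-E2-4hr, at 0.39 and 0.40 against 0.60 and 0.93. In ERaKO-OVX it was higher, at 1.44 and 1.52 against 0.75 and 0.81. In WT-OVX the sets overlapped, at 1.30 and 1.29 against 1.14 and 1.32.

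**Figure D5:**
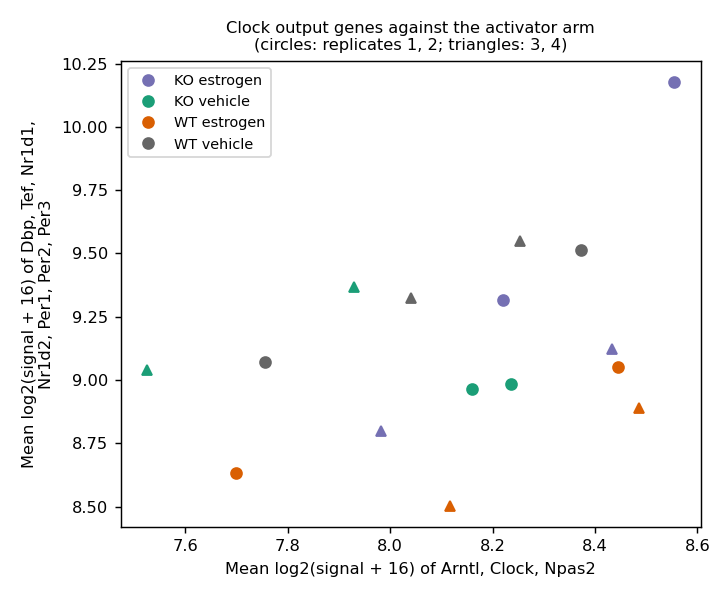
Mean log2(signal + 16) of the 7 output genes (y axis) against that of Arntl, Clock and Npas2 (x axis) in each of the 16 mice, by group (colour) and replicate set (circles 1 and 2, triangles 3 and 4). At like activator levels the WT estrogen mice lie below the WT vehicle mice, and ERaKO-E2-4hr replicate 1 is highest on the y axis.

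The genes whose signals ran most like the mean of those 7 over the 16 arrays were sought among 12709 genes outside both lists. Genes without an approved symbol, judged by the form of their names, were passed over. The 8 most alike of the rest were Zfp383, Ttc21b, Msrb3, Fzd1, Arhgap42, Nr3c1, Cavin3 and Lum, with Pearson r from 0.88 to 0.91. The 8 most opposite were Syce2, Cdca8, Srgn, Heatr1, Cd37, Cenpu, Kif2c and Arf3, with r from −0.94 to −0.87. Nr3c1 encodes the glucocorticoid receptor, Cdca8 and Kif2c are genes of mitosis, and Srgn and Cd37 are genes of blood cells. Over deviations from the mean of each group and replicate set, r was 0.75 to 0.90 for the first 8 and −0.92 to −0.69 for the second. Among the clock genes themselves Per2 (0.90) and Tef (0.88) ran closest to the mean they are part of, Dbp (0.64) less so, and Cry1 against it (−0.41). ERaKO-E2-4hr replicate 1 stood apart, with a mean log2 signal of those 7 genes of 10.18, against 8.50 to 9.55 in the other mice. How far these r values rest on that mouse was not tested. The arrays share their scaling and their tissue content, and r here is a description of 16 arrays.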

How the data were processed

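Total RNA from the distal femur of 16 mice, 4 per group, was measured on 1 array per mouse without pooling, per the labels. The deposited values are array intensity (signal per probe set) on a linear scale, made with GCOS per the submitters' processing notes (version not given in the sources used here) and scaled by the authors to a 2% trimmed mean of 500, as the values show. No detection calls were used. No 2 arrays were identical, and precision is limited by how many arrays there are. From the deposited signals log2(signal + 16) was computed, with the pseudocount of 16. Probe sets were named from the platform annotation: 34945 had 1 gene symbol, 932 several and 9160 none, and 34741 of the first kind matched a RefSeq gene. Each gene took its probe set of highest mean, and genes under the 30th percentile (a signal of about 109) were left out, which left 12735. Differences were tested with limma 3.58.1 in R 4.3.3 (1 mean per group, moderated variances with a trend, 12 residual degrees of freedom) and Benjamini-Hochberg adjustment over all genes at 0.05. Tests covered the estrogen difference of each genotype, the genotype difference of each treatment, how far the 2 estrogen responses differed, both averages, and replicates 3 and 4 against 1 and 2. Single genes also had exact two-sided permutation tests, over 70 arrangements for 2 groups (smallest p 0.0286) or 4900 for 4 groups. For the difference between responses, treatment labels were permuted within genotypes, as if estrogen acted in neither. P-values measure the spread between mice. The members and lists were chosen with earlier results of these data known. The text names all 10 clock genes, the other clock genes Arntl, Npas2, Nfil3 and Hlf, up to 6 more of that list at an unadjusted p under 0.05 (smallest first), Esr1, and, among genes with an approved symbol, the 8 most like and 8 most opposite to the output genes. The 9 marker lists were skeletal muscle, osteoclast, osteoblast and osteocyte, adipocyte, erythroid, B lymphocyte, neutrophil, cartilage and glucocorticoid response. On simulated data of 12735 genes for the wild-type estrogen comparison, 45% of 100 genes with a log2 change of 1 and 90% of 100 with a change of 2 were recovered, with 4 false calls. Same-numbered mice of different groups deviated together: all 24 correlations of their deviations from the group means were over 0.1 (0.18 to 0.59, median 0.31), as were 23 of 24 between the other number of the same set (median 0.35). Between mice of different sets the median was −0.34. Sharing a number thus added nothing to sharing a set, and from the data alone the numbers mark 2 sets. The main fit did not pair mice, and the replicate number as a block was run only as an alternative. Alternatives were quantile scaling, other pseudocounts and filters, other treatments of probe sets, no trend, array weights, leaving out arrays, the block, the replicate set as a term or split, and, added after the data were seen, a muscle covariate and each gene's probe set kept while arrays were left out.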

Additional observations from a re-analysis of the deposited data

Results flagged for a closer look

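For 2 clock genes the difference between the estrogen responses of the 2 genotypes had an exact permutation p under 0.05. Treatment labels were permuted within genotypes, which takes estrogen to act in neither, so it is no test of equal responses. For Nr1d2 the knockout response minus the wild-type response was 1.59 on the log2 scale (permutation p = 0.0184). For Cry1 it was −0.59 (permutation p = 0.0224). The limma test of the same differences gave adjusted p = 0.631 and 0.646 over 12735 genes, so neither passed, and the 10 clock genes were looked at together. With 1 array left out at a time, or under another setting, the unadjusted p was under 0.05 in 30 of 31 cases for Nr1d2 and 15 of 31 for Cry1.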

How the results depend on the processing

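No clock gene passed over all genes in any estrogen or genotype comparison under any alternative that was run. The Dbp difference after estrogen in wild type kept its sign and an unadjusted p under 0.05 in 31 of 31 alternatives (adjusted p 0.105 to 0.546), and that of Nr1d2 in 30 of 31 (adjusted p 0.0794 to 0.629). Some of these alternatives left out 1 knockout mouse, which cannot move a wild-type difference and changes only its p. The replicate number as a block, which pairs mice across groups, moved the count of clock genes between knockout and wild type after estrogen to 2 from 1 and changed no other count by over 1.5 times. The share of all genes at an unadjusted p under 0.05 moved too. With the set term it was 9.84% for knockout after estrogen, against 6.75% in the main fit. For estrogen in wild type it was 12.5%, against 8.69%. That share is not given for the other alternatives, so clock gene counts under them are no result about clock genes. Counts under the other alternatives moved as follows, and the cause was not tested. For estrogen in knockout, genes passing (0) became 1 with quantile scaling, a 50th percentile filter, the mean of probe sets, array weights, the set term or the muscle covariate, and 2 without the 3 high spike-in arrays, and clock genes under 0.05 (0) became 2 within replicates 1 and 2. For estrogen in wild type, genes passing (0) became 5 with weights, 5 with the set term and 15 with muscle, and clock genes (3) became 1 within replicates 1 and 2. For knockout under vehicle, genes passing (0) became 1 with weights, 6 within replicates 1 and 2 and 1 with muscle, and clock genes (0) became 1 with the mean of probe sets and 1 within replicates 1 and 2. For knockout after estrogen, clock genes (1) became 3 with the mean of probe sets, 0 with weights, 2 with the set term, 5 within replicates 1 and 2, 0 without the high spike-in arrays and 2 with muscle. For the difference between responses, genes passing (0) became 102 within replicates 1 and 2, and clock genes (3) became 1 with weights, 0 within replicates 3 and 4 and 1 without the high spike-in arrays. For the estrogen average, genes passing (2) became 1 with every probe set, 1 without a trend, 6 with weights, 8 with the set term, 0 within replicates 1 and 2, 14 within replicates 3 and 4 and 6 with muscle, and clock genes (1) became 2 with the mean of probe sets, 0 within replicates 1 and 2, 2 within replicates 3 and 4 and 2 without the high spike-in arrays. For the genotype average, genes passing (0) became 1 with the set term, 1 within replicates 1 and 2 and 1 with muscle, and clock genes (0) became 3 within replicates 1 and 2. For the replicate sets, genes passing (2285) became 5030 with every probe set, 569 within ERaKO-E2-4hr, 30 within ERaKO-OVX, 113 within WT-E2-4hr, 454 within WT-OVX, 1218 without the high spike-in arrays (1250 with each probe set kept) and 0 with muscle. Clock genes passing there (3) became 1 with no filter, 1 with every probe set, 1 within ERaKO-E2-4hr, 0 within ERaKO-OVX, 0 within WT-E2-4hr, 1 within WT-OVX, 0 without the high spike-in arrays (1, Per3, with each probe set kept) and 0 with muscle, and those under 0.05 became 1 within ERaKO-OVX and 1 within WT-E2-4hr. The differences between replicate sets that turned sign were these: Per3 was −0.16 within ERaKO-E2-4hr and −0.012 without the high spike-in arrays (its probe set chosen anew, and 0.49 with it kept), Cry2 was 0.050 with muscle, and Dbp was 0.030 within ERaKO-OVX. Keeping each gene's probe set while arrays were left out, a choice made after the data were seen and not among the 31, changed the probe set of no clock gene but Per3. With 1 array left out at a time, genes passing ranged from 0 to 3 for estrogen in knockout, 0 to 2 in wild type, 0 to 2 for knockout after estrogen, 1 to 3 for the estrogen average, 0 to 1 for the genotype average and 1510 to 2494 for the replicate sets (1512 to 2495 with each probe set kept). Clock genes under 0.05 ranged from 2 to 3 for estrogen in wild type, 0 to 3 for knockout after estrogen, 1 to 3 for the difference between responses, 0 to 2 for the estrogen average, 0 to 1 for the genotype average and 2 to 4 for the replicate sets, where 0 to 2 passed. Nr1d1, Npas2 and the second Nr1d2 probe set were dim, which limits what their values can show.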
